A study of Homo sapiens with 16 samples.

Results

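The 9 genes described here encode parts of the MHC class I antigen display route: the heavy chains HLA-B, HLA-C and HLA-E, the light chain B2M, the peptide transporter subunits TAP1 and TAP2, the loading factor TAPBP, the peptidase ERAP2 and the transcriptional regulator NLRC5. They were taken by name from the deposited table, in which all 9 of 9 were found among 78894 features, and all 9 passed the filter on low values. RNA came from T47D, an established luminal breast cancer cell line that expresses the estrogen receptor. The libraries formed 4 groups of 4, 16 in all: cells with a control guide under vehicle, the same cells under abemaciclib, cells with FAH knockout under vehicle, and knockout cells under abemaciclib. Abemaciclib blocks the kinases CDK4 and CDK6 and was given at 500 nM for 3 days. FAH encodes fumarylacetoacetate hydrolase, which completes the breakdown of tyrosine. The guide sequences are not analysed here, and the labels do not say whether the knockout cells were 1 clone or a pool. Nothing in the labels ties replicates to separate cultures, so the p-values cover the scatter of these libraries alone, possibly a technical one.

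MHC class I molecules show short peptides from inside the cell to cytotoxic T cells. The proteasome cuts proteins into peptides, TAP1 and TAP2 form the pump that carries them into the endoplasmic reticulum, and ERAP enzymes trim them there. TAPBP, also called tapasin, holds an empty heavy chain with its B2M partner at the pump until a peptide is bound. NLRC5 is recruited to a compound promoter element of class I genes, and interferons and NF-kappaB also raise their transcription. HLA-E is a less variable class I molecule that binds receptors of natural killer cells.

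The stretches below are shown because they hold letters of the kinds bound by these regulators near the starts of the members. RefSeq promoter windows (GRCh38.p14), each from 250 bases before to 50 bases after a gene start, were matched for 7 of the 9 members, 9 windows in all. HLA-E and NLRC5 were not matched. The letters searched on both strands were GAAA and GAAA parted by 2 bases of any kind and the shorter GAANNGAAA, both of the kind bound by interferon-regulated factors. A pattern of the kind bound by NF-kappaB was GGG, then TT after 2 bases of any kind, then CC after 1 more. The last search was for TGACG followed by ATTGG after 18 to 22 bases. This spaced pair has the layout of the element that NLRC5 acts through. The 2 interferon-type patterns can overlap each other. Capitals mark the matches, and of the spaced pair only the 2 end boxes. All 30 bases shown for TAP1, TAPBP and ERAP2, and 3 of the 30 for TAP2, are exonic in the gene's own GENCODE 29 annotation, which has starts further upstream, while the stretches of HLA-B, HLA-C and B2M hold 0 such bases.
HLA-B, chr6:31357235-31357364, minus strand: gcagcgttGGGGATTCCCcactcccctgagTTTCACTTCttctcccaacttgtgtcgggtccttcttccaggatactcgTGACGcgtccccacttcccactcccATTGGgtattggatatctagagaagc
HLA-C, chr6:31272132-31272251, minus strand: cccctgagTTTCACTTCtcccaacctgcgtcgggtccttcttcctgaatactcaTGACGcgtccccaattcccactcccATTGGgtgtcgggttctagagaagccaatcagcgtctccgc
B2M, chr15:44711365-44711484, plus strand: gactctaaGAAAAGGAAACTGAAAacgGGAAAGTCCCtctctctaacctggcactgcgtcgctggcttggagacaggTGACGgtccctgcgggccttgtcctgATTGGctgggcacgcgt
TAP1, chr6:32853819-32853848, minus strand: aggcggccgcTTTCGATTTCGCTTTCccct
TAP2, chr6:32838778-32838807, minus strand: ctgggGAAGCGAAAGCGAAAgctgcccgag
TAPBP, chr6:33314079-33314108, minus strand: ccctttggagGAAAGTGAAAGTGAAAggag
ERAP2, chr5:96876460-96876489, plus strand: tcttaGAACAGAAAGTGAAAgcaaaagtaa

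An interferon-type match lay in at least 1 window of 7 of these 7 members. By window it lay in 7 of their 9 windows, against 10.6% of all 35116 promoter windows. The counts that follow are of members, whereas the shares beside them are of windows. The longer pattern alone was in windows of 5 members (3.57% of all windows). HLA-B and HLA-C held only the shorter one. The NF-kappaB-type pattern was found for 4 members, HLA-B, B2M, TAP1 and TAPBP (5.68% of all windows). The spaced pair was found for 3, HLA-B, HLA-C and B2M (0.268% of all windows). In HLA-B it ran from 106 to 77 bases before the start and in B2M from 75 to 45. TAP1 and ERAP2 each have a further annotated start whose window held none of the patterns. The patterns were chosen with these promoters in view, so the shares are a description, and a match is not a bound site.

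**Figure D1:**
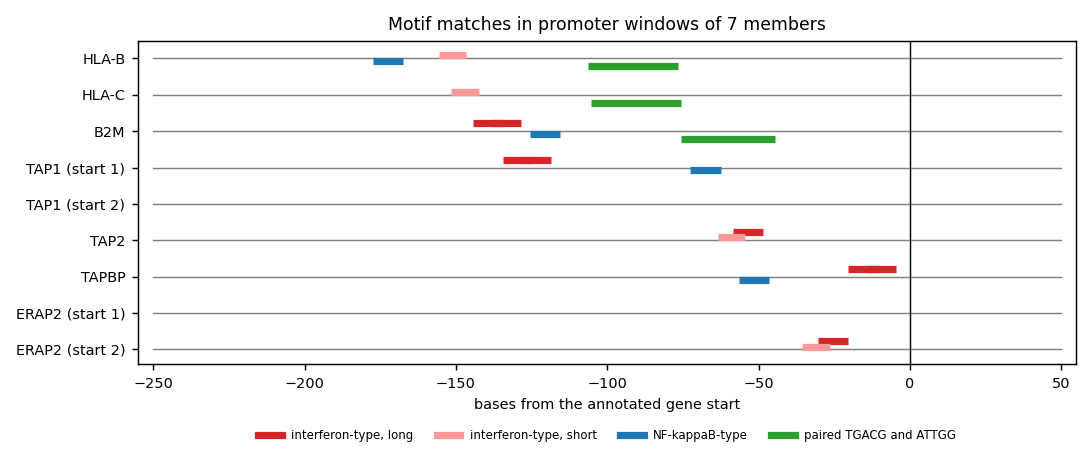
Motif matches along the promoter windows of 7 members, in bases from the annotated gene start (0), with 1 line per window. Red and pink bars are the long and short interferon-type patterns, blue bars the NF-kappaB-type pattern and green bars the spaced pair, which is seen in HLA-B, HLA-C and B2M alone among these windows.

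Between 9915776 and 11963093 reads a library were assigned to genes. The targeted gene FAH was lower in each knockout library than in any control library, at 25.1% of the control mean under vehicle and 24.0% under abemaciclib. All 10 luminal markers passed the filter, and with knockout 5 rose and 5 fell under vehicle (median 0.04), and 4 rose and 5 fell under abemaciclib (median -0.01). The keratins KRT8 (0.90 under vehicle, limma adjusted p = 5.3e-23) and KRT18 (0.85, limma adjusted p = 9.0e-24) rose, and the estrogen receptor gene ESR1 (-0.35, limma adjusted p = 4.2e-08) and GATA3 (-0.31, limma adjusted p = 7.6e-12), a luminal transcription factor, fell. Reads of KRT18 were whole in 1 of 16 libraries, so its level is uncertain. The summed level, of which KRT8 and KRT18 took a large share, ran from 9527 to 9702 CPM in control and 13185 to 13586 CPM in knockout libraries under vehicle, and from 11380 to 11818 and 15867 to 16125 CPM under abemaciclib; its part in the results was not tested. The 15 leukocyte markers summed to 9.13 to 10.1 CPM in control and 7.94 to 9.34 CPM in knockout libraries under vehicle, and to 7.10 to 8.37 and 6.23 to 8.12 CPM under abemaciclib. None of the 15 was at 0 in every library, PTPRC lay at 0.443 to 1.70 CPM, and the highest sum in each treatment was in a control library. The 9 fibroblast and endothelial markers summed to 46.0 to 68.6 CPM, with COL1A1 at 40.6 to 60.6 CPM, CDH5 at 0 and PECAM1 at 0 to 0.179 CPM. The sum was 46.0 to 48.5 CPM in control and 53.3 to 63.0 CPM in knockout libraries under vehicle and 55.2 to 67.8 and 63.5 to 68.6 CPM under abemaciclib, and its part in the results was not tested. In bulk RNA, fewer cells with a transcript and less of it per cell cannot be told apart.

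Expression is given in counts per 1000000 assigned reads (CPM), as means ± SD of 4 libraries, and differences as log2 of CPM plus a pseudocount of 1, a scale that makes changes of low genes look smaller. A difference was called at a limma adjusted p under 0.05, over all 16218 tested genes of a comparison. The 4 group comparisons share groups with each other, so their values are set side by side and not treated as independent.

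The first comparison asked what accompanied FAH loss without drug. Of the 9 members 8 rose in knockout cells and 0 fell, with a median log2 difference of 0.52 against 0.06 over all tested genes. The members were chosen with earlier results of these data known, so their counts and medians beside all tested genes are a description. Among all tested genes 24.6% were called higher and 13.1% lower. After median-of-ratios rescaling the calls were 2818 higher and 2979 lower, against 3987 and 2121 as deposited. Among the members HLA-E lost its call after this rescaling (0.05, limma adjusted p = 0.383). The libraries of 8 members did not overlap between genotypes, 8 higher in knockout cells and 0 lower, against 22.2% and 12.7% of all tested genes. Under abemaciclib 8 of 9 members rose and 1 fell in knockout cells (median 0.37 against 0.04), beside 18.6% of all tested genes called higher and 11.3% lower (2178 and 2376 genes after rescaling, 3020 and 1837 as deposited). NLRC5 lost its call under abemaciclib after rescaling (0.31, limma adjusted p = 0.0663). Under this treatment the libraries of all 9 members did not overlap, 8 higher (16.5% of all tested genes) and 1 lower (10.1%). Summed, the 9 genes took 0.196 ± 0.00178% of assigned reads in control and 0.259 ± 0.00631% in knockout libraries under vehicle. Under abemaciclib the shares were 0.190 ± 0.00508% and 0.263 ± 0.00244%.

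**Figure D2:**
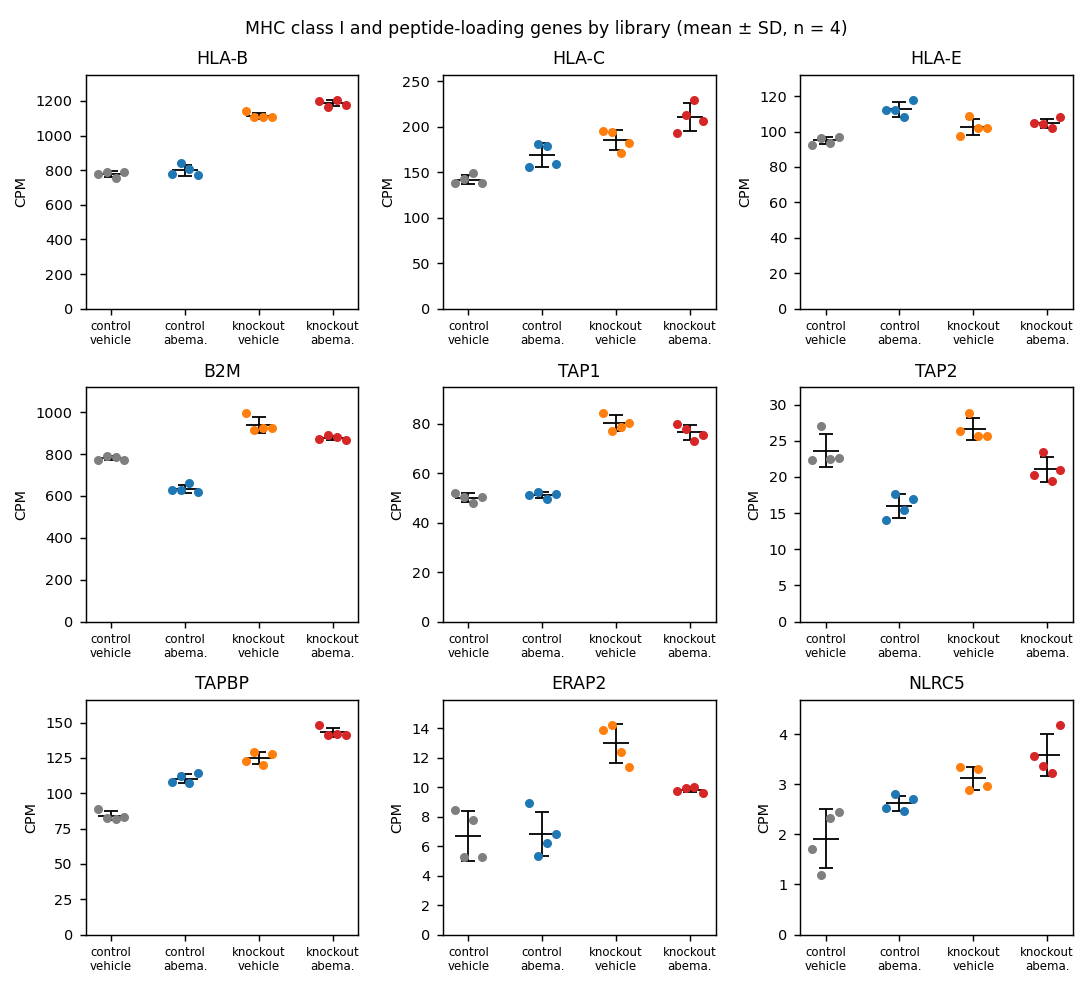
CPM of each member in every library (dots), by group on the horizontal axis, with mean and SD (bars, n = 4) and each vertical axis from 0. For HLA-B, B2M, TAP1, TAPBP, ERAP2 and, narrowly, NLRC5 the lowest knockout library lies above the highest control library. HLA-E is highest in control libraries under abemaciclib.

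The abundant classical heavy chain HLA-B (ENSG00000234745, chromosome 6, 31269491 to 31357188 on the minus strand, GENCODE 29) separated the genotypes under both treatments. Control libraries under vehicle held 778, 791, 756 and 789 CPM and knockout libraries 1140, 1107, 1105 and 1104. Under abemaciclib control libraries held 777, 843, 806 and 770 CPM and knockout libraries 1200, 1166, 1207 and 1175. No knockout library came near the highest control library. The log2 difference was 0.52 under vehicle (SE 0.028, limma adjusted p = 3.5e-16), a 1.43-fold ratio of means. Under abemaciclib it was 0.57 (SE 0.028, limma adjusted p = 3.0e-17), or 1.49-fold. The annotated span of HLA-B in this GENCODE release overlaps part of HLA-C. Reads of HLA-B, HLA-C and HLA-E were whole numbers in 1, 2 and 3 of 16 libraries, so part of their reads was shared with other features, by an amount that is not known.

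HLA-C (ENSG00000204525, chromosome 6, 31268749 to 31272130 on the minus strand), the second classical chain here, moved in the same direction by less. Control libraries held 138, 143, 149 and 138 CPM under vehicle and 156, 181, 179 and 159 under abemaciclib. Knockout libraries held 195, 194, 171 and 182 CPM under vehicle and 193, 213, 230 and 207 under abemaciclib. Both genotype comparisons were free of overlap, although the control libraries under abemaciclib overlapped the knockout libraries under vehicle. HLA-C rose in knockout cells by 0.38 under vehicle (SE 0.049, limma adjusted p = 1.6e-07) and by 0.32 under abemaciclib (SE 0.049, limma adjusted p = 4.7e-06).

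HLA-E (ENSG00000204592, chromosome 6, 30489467 to 30494205 on the plus strand), the chain read by natural killer cells, did not follow the other heavy chains. Under vehicle it stood at 92.6, 96.5, 93.6 and 97.2 CPM in control and 97.7, 109, 102 and 102 CPM in knockout libraries. Under abemaciclib the order turned, with 112, 112, 108 and 118 CPM in control and 105, 104, 102 and 108 CPM in knockout libraries. The 4 knockout libraries were above all controls under vehicle and below all controls under abemaciclib, by narrow margins. The log2 difference was 0.11 under vehicle (interval 0.03 to 0.19, limma adjusted p = 0.0224) and -0.10 under abemaciclib (interval -0.18 to -0.02, limma adjusted p = 0.0474). The first call was lost after median-of-ratios rescaling (0.05, limma adjusted p = 0.383) and when control vehicle replicate 1, control vehicle replicate 3 or knockout vehicle replicate 2 was left out (0.10, 0.11 and 0.08, with limma adjusted p = 0.0686, 0.0560 and 0.119). Without the filter and after quantile normalization the first call was lost too (limma adjusted p = 0.0504 and 0.0948). Leaving out the trend of the spread on expression also lost it (limma adjusted p = 0.0556). The second call was lost in 12 of the 16 fits that left out a library, with limma adjusted p up to 0.159 without control abemaciclib replicate 4.

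B2M (ENSG00000166710, chromosome 15, 44711487 to 44718877 on the plus strand) encodes the light chain of class I molecules. Control libraries held 772, 792, 788 and 772 CPM under vehicle, and knockout libraries 998, 914, 922 and 922. Under abemaciclib these were 628, 628, 660 and 618 CPM in control and 871, 890, 882 and 869 CPM in knockout libraries. All 4 groups were apart from each other. B2M rose in knockout cells by 0.26 under vehicle (SE 0.029, limma adjusted p = 5.6e-09) and by 0.47 under abemaciclib (SE 0.029, limma adjusted p = 8.3e-15).

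The transporter subunit TAP1 (ENSG00000168394, chromosome 6, 32845209 to 32853978 on the minus strand) had whole reads in all 16 libraries. Under vehicle it was at 51.9, 50.5, 47.8 and 50.6 CPM in control and 84.6, 77.2, 78.9 and 80.5 CPM in knockout libraries. Under abemaciclib it was at 51.1, 52.4, 49.7 and 51.8 CPM in control and 80.0, 77.8, 73.0 and 75.7 CPM in knockout libraries. The 8 control libraries formed one narrow band and the 8 knockout libraries another. TAP1 rose by 0.67 under vehicle (SE 0.043, limma adjusted p = 2.6e-14, 1.60-fold) and by 0.57 under abemaciclib (SE 0.043, limma adjusted p = 1.7e-12, 1.5-fold).

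TAP2 (ENSG00000204267, chromosome 6, 32821833 to 32838780 on the minus strand), its partner in the pump, separated the genotypes less clearly. Control libraries under vehicle held 22.3, 27.0, 22.5 and 22.6 CPM and knockout libraries 26.3, 28.9, 25.6 and 25.6. Control replicate 2 lay inside the knockout range, and the log2 difference of 0.17 was not called (interval 0.02 to 0.32, limma adjusted p = 0.0729). It was called with only the 2 groups compared in the fit (0.17, limma adjusted p = 0.0372), without that library (0.23, limma adjusted p = 0.0175) and without control abemaciclib replicate 1 (0.17, limma adjusted p = 0.0490). Under abemaciclib control libraries held 14, 17.7, 15.4 and 17 CPM and knockout libraries 20.3, 23.5, 19.4 and 21.0. These did not overlap, and TAP2 rose by 0.37 in knockout cells (SE 0.074, limma adjusted p = 1.9e-04). TAP2 reads were whole in 8 of 16 libraries and are therefore uncertain.

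TAPBP (ENSG00000231925, chromosome 6, 33299694 to 33314387 on the minus strand) took 4 separate levels. It stood at 88.9, 82.4, 82.1 and 83.3 CPM in control and 123, 129, 120 and 128 CPM in knockout libraries under vehicle. Under abemaciclib it stood at 108, 112, 107 and 114 CPM in control and 148, 141, 142 and 141 CPM in knockout libraries. No group overlapped its neighbour, in the order control vehicle, control abemaciclib, knockout vehicle, knockout abemaciclib. TAPBP rose in knockout cells by 0.57 under vehicle (SE 0.038, limma adjusted p = 4.4e-14) and by 0.37 under abemaciclib (SE 0.038, limma adjusted p = 1.5e-09). Its reads were whole in 3 of 16 libraries.

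ERAP2 (ENSG00000164308, chromosome 5, 96875939 to 96919716 on the plus strand), which trims peptide ends in the endoplasmic reticulum, had the largest log2 difference of the 9 under vehicle. Control libraries held 8.47, 5.26, 7.76 and 5.28 CPM and knockout libraries 13.9, 14.2, 12.4 and 11.4. Under abemaciclib control libraries held 8.91, 5.34, 6.20 and 6.84 CPM and knockout libraries 9.74, 9.96, 10.0 and 9.62. Control libraries were widely spread (53 to 95 reads each), yet all lay below the knockout libraries. ERAP2 rose by 0.88 under vehicle (SE 0.121, limma adjusted p = 4.5e-07, 1.93-fold) and by 0.49 under abemaciclib (SE 0.121, limma adjusted p = 0.00201, 1.44-fold).

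NLRC5 (ENSG00000140853, chromosome 16, 56989485 to 57083531 on the plus strand), the class I transactivator, was the least abundant member, with 12 to 46 reads a library. Under vehicle it was at 1.71, 1.19, 2.32 and 2.45 CPM in control and 3.34, 2.89, 3.31 and 2.96 CPM in knockout libraries. Under abemaciclib it was at 2.52, 2.80, 2.46 and 2.7 CPM in control and 3.57, 3.36, 3.23 and 4.18 CPM in knockout libraries. Knockout libraries were above control libraries under both treatments. NLRC5 rose by 0.52 under vehicle (SE 0.125, limma adjusted p = 0.00121) and by 0.34 under abemaciclib (SE 0.125, limma adjusted p = 0.0400). The latter call was lost with a pseudocount of 0.1 (0.43, limma adjusted p = 0.0613) and in 6 of 16 fits that left out a library (control abemaciclib replicates 1, 3 and 4, knockout abemaciclib replicates 1, 2 and 4), with 0.28 (limma adjusted p = 0.133) without knockout abemaciclib replicate 4.

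**Figure D3:**
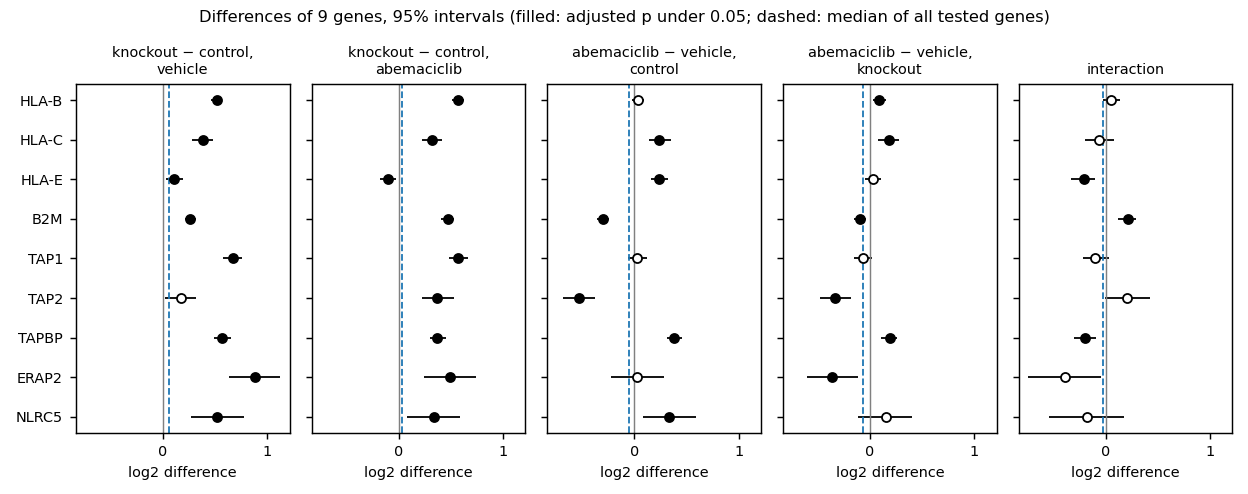
Log2 differences of the 9 genes in 5 comparisons, with 95% intervals of the fit. Filled dots passed the test, and the dashed line is the median of all tested genes. Both genotype panels lie to the right of that line except for HLA-E under abemaciclib (-0.10), while the drug panels hold members on both sides.

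The drug comparisons asked what abemaciclib alone accompanied in each genotype. In control cells 4 of 9 members rose and 2 fell (median 0.04 against -0.05 over all tested genes), beside 19.6% of all tested genes called higher and 31.1% lower. After rescaling 4182 genes were higher and 3998 lower, against 3181 and 5039 as deposited. Libraries did not overlap for the 6 called members, 4 higher and 2 lower, against 16.1% and 26.7% of all tested genes. TAPBP (0.38, limma adjusted p = 1.9e-10), HLA-C (0.24, limma adjusted p = 9.0e-05), HLA-E (0.24, limma adjusted p = 3.5e-06) and NLRC5 (0.33, limma adjusted p = 0.0260) rose. TAP2 averaged 23.6 ± 2.26 CPM under vehicle and 16 ± 1.68 CPM under abemaciclib, and fell (-0.53, limma adjusted p = 2.8e-07). B2M averaged 781 ± 10.8 and 633 ± 18.3 CPM, and fell too (-0.30, limma adjusted p = 1.1e-10). HLA-B (0.04, interval -0.02 to 0.09), TAP1 (0.03, interval -0.06 to 0.12) and ERAP2 (0.03, interval -0.22 to 0.28) were not called. HLA-B passed after median-of-ratios rescaling (0.11, limma adjusted p = 0.00685) and TAP1 after quantile normalization (0.11, limma adjusted p = 0.0279). The call of NLRC5 was lost in 4 of 16 fits that left out a library (control vehicle replicates 1 and 2, control abemaciclib replicates 2 and 4), with 0.20 (limma adjusted p = 0.174) without control vehicle replicate 2.

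In knockout cells 3 of 9 members rose and 3 fell under abemaciclib (median 0.03 against -0.07), beside 11% of all tested genes called higher and 27.4% lower. Libraries did not overlap for 5 members, HLA-B and TAPBP higher (10.4% of all tested genes) and B2M, TAP2 and ERAP2 lower (25.5%). After median-of-ratios rescaling 3227 of the 16218 genes were higher and 2847 lower, against 1780 and 4444 as deposited. TAPBP (0.19, limma adjusted p = 1.4e-04), HLA-C (0.18, limma adjusted p = 0.00318) and HLA-B (0.09, limma adjusted p = 0.0104) rose. The call of HLA-B was lost without the trend of the spread on expression (limma adjusted p = 0.0799). TAP2 averaged 26.6 ± 1.58 CPM under vehicle and 21.0 ± 1.77 CPM under abemaciclib, and fell (-0.33, limma adjusted p = 6.2e-04). ERAP2 averaged 12.9 ± 1.31 and 9.84 ± 0.187 CPM (-0.36, limma adjusted p = 0.0178) and B2M 939 ± 39.3 and 878 ± 9.93 CPM (-0.10, limma adjusted p = 0.00864), and both fell. The calls of B2M and ERAP2 were lost after rescaling, B2M at -0.00 and ERAP2 at -0.27 (limma adjusted p = 0.0628 for ERAP2). That of B2M was also lost without knockout vehicle replicate 1 (-0.07, limma adjusted p = 0.0692), and that of ERAP2 without knockout vehicle replicate 1 or 2 (-0.33 and -0.32, limma adjusted p = 0.0555 and 0.0608). HLA-E (0.03), TAP1 (-0.07) and NLRC5 (0.15) were not called, and HLA-E passed after rescaling (0.12, limma adjusted p = 0.0203).

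The interaction asked whether the drug difference differed between genotypes. Of the 9 members 1 had a higher and 2 a lower drug difference in knockout than in control cells, beside 4.68% and 6.16% of all tested genes. B2M fell less in knockout cells (interaction 0.21, SE 0.041, limma adjusted p = 6.7e-04), a call lost after quantile normalization (0.07, limma adjusted p = 0.330). HLA-E (-0.21, SE 0.056, limma adjusted p = 0.00874) and TAPBP (-0.20, SE 0.053, limma adjusted p = 0.0134) gained less. TAPBP was lost without the trend of the spread on expression (limma adjusted p = 0.0575). The other 6 were not called, from -0.39 for ERAP2 (interval -0.74 to -0.04, limma adjusted p = 0.153) to 0.20 for TAP2 (interval -0.01 to 0.42, limma adjusted p = 0.241).

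Ratios within a library, which do not move with its scaling, show the unequal change of partners. These 4 ratios were chosen after the levels had been seen, a choice that the adjustment of their p-values does not cover. Each holds a gene with partly shared reads (HLA-B, HLA-E, TAP2 or TAPBP), so the level of each ratio is uncertain. HLA-B to B2M was 0.997 ± 0.0269 in control and 1.19 ± 0.0306 in knockout libraries under vehicle, and 1.26 ± 0.0551 and 1.35 ± 0.0303 under abemaciclib. TAP1 to TAP2 was 2.14 ± 0.197 in control and 3.03 ± 0.246 in knockout libraries under vehicle, and 3.22 ± 0.313 and 3.66 ± 0.268 under abemaciclib. Both ratios were higher with knockout under vehicle, and higher with drug in both genotypes. Each of these 6 comparisons gave p = 0.0286 in an exact two-sided permutation test, the smallest that 70 assignments allow, and 0.0381 adjusted over 16 tests. The genotype difference under abemaciclib did not pass for either (exact permutation p = 0.0571 and 0.0857, adjusted 0.0703 and 0.0914). HLA-E to HLA-B fell with knockout, from 0.122 ± 0.00213 to 0.0924 ± 0.00538 under vehicle and from 0.141 ± 0.00938 to 0.0883 ± 0.00319 under abemaciclib (exact permutation p = 0.0286 each, adjusted 0.0381). It rose with drug in control cells (log2 0.21, exact permutation p = 0.0286, adjusted 0.0381), and in knockout cells the test did not pass (log2 -0.06, exact permutation p = 0.229). TAPBP to TAP1 rose with drug from 1.68 ± 0.0445 to 2.15 ± 0.0325 in control and from 1.56 ± 0.0930 to 1.86 ± 0.0541 in knockout cells (exact permutation p = 0.0286 each, adjusted 0.0381). It fell with knockout under abemaciclib (log2 -0.20, exact permutation p = 0.0286, adjusted 0.0381), and under vehicle the test did not pass (log2 -0.10, exact permutation p = 0.0857, adjusted 0.0914).

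**Figure D4:**
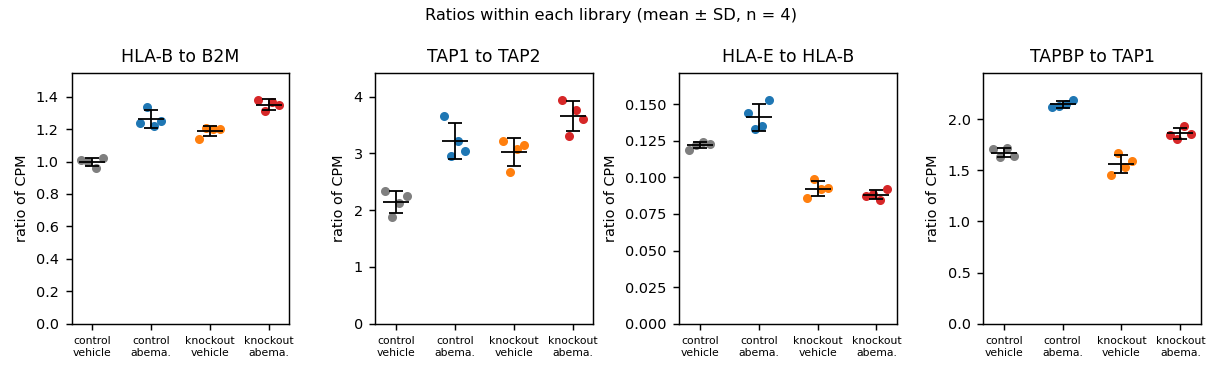
Ratios of CPM of 2 members within each library (dots), by group, with mean and SD (bars, n = 4) and vertical axes from 0. HLA-B to B2M and TAP1 to TAP2 are lowest in control libraries under vehicle (means 0.997 and 2.14), and HLA-E to HLA-B is lower in all knockout than in all control libraries.

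Across the 16 libraries the members differed in how closely they followed the mean standardized level of the other 8. Pearson's r was 0.96 for HLA-B and TAP1, 0.87 for TAPBP, 0.81 for HLA-C, 0.77 for ERAP2, 0.75 for NLRC5 and 0.66 for B2M. It was 0.24 for TAP2 and 0.05 for HLA-E. Of 10328 other protein-coding genes of at least 5 mean CPM, those most like the mean of the 9 members were IFITM3 (r = 0.988), an interferon-induced membrane protein, and OAS1 (0.984), a sensor of double-stranded RNA. GLUL (0.983), the glutamine synthetase, the metalloreductase-related STEAP1 (0.983) and LRPAP1 (0.982), a receptor chaperone, came next. The libraries form 4 groups, and the values reflect group differences as well as variation between libraries. IFITM3, GLUL and LRPAP1 have partly shared reads.

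Lists of genes, also chosen with earlier results of these data known, gave the rest of the class I route. Each is set beside the background of all tested genes. With knockout that was 24.6% higher and 13.1% lower under vehicle (median 0.06), and 18.6% higher and 11.3% lower under abemaciclib (median 0.04). Among 7 genes of proteasome supply 5 rose and 0 fell in knockout cells under vehicle (median 0.35), and 7 rose and 0 fell under abemaciclib (median 0.38). PSMB9, an immunoproteasome subunit encoded beside TAP1, rose from 12.6 ± 1.57 to 25.7 ± 2.78 CPM under vehicle (0.98, limma adjusted p = 1.7e-10) and from 5.48 ± 0.763 to 14.7 ± 1.14 CPM under abemaciclib (1.28, limma adjusted p = 3.5e-13). The subunits PSMB10 and PSMB8 rose by 0.66 and 0.64 under vehicle. Abemaciclib lowered PSMB9 in control cells by a log2 difference of -1.07 and in knockout cells by -0.77 (limma adjusted p = 6.5e-12 and 2.1e-08), where TAP1 was not called.

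Of 17 genes of peptide trimming, transport and folding 7 rose and 1 fell in knockout cells under vehicle (median 0.10), and 5 rose and 2 fell under abemaciclib (median 0.01). After rescaling 3 fell under vehicle and 3 rose under abemaciclib, and without control abemaciclib replicate 4 also 3 rose; without control vehicle replicate 1, 0 fell under vehicle. The counts under abemaciclib were near the background of 18.6% higher and 11.3% lower, against 24.6% and 13.1% under vehicle. ERAP1, the other trimming enzyme of the endoplasmic reticulum, rose from 10.7 ± 1.19 to 16.9 ± 1.14 CPM under vehicle (0.61, limma adjusted p = 1.7e-07) and by 0.27 under abemaciclib (limma adjusted p = 0.00874). SEC61A1, a channel subunit of the endoplasmic reticulum, rose by 0.23 under abemaciclib (limma adjusted p = 5.6e-06), and NPEPPS, a cytosolic aminopeptidase with partly shared reads, fell by 0.23 (limma adjusted p = 4.4e-07). In control cells 11 of the 17 rose and 3 fell with drug (median 0.14 against -0.05), beside 19.6% of all tested genes higher and 31.1% lower. ERAP1 (0.47), NPEPPS (0.43) and LNPEP (0.41) were among those that rose, and the peptidases BLMH (-0.33) and TPP2 (-0.31) among those that fell.

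Of 16 tested regulators of class I transcription 9 rose and 1 fell in knockout cells under vehicle (median 0.17), while 8 rose and 0 fell under abemaciclib (median 0.18), beside 24.6% and 13.1%, and 18.6% and 11.3%, of all tested genes. After rescaling 3 fell under vehicle. IRF1, which binds interferon-type elements, rose from 3.76 ± 0.366 to 11.4 ± 0.385 CPM under vehicle (1.38, limma adjusted p = 3.8e-13) and from 3.95 ± 0.742 to 9.54 ± 0.725 CPM under abemaciclib (1.10, limma adjusted p = 1.3e-10). NFKB1, a subunit of NF-kappaB, rose by 0.65 and 0.53 (limma adjusted p = 4.2e-10 and 3.4e-08). IRF1 was not among the genes called with drug. EZH2, a histone methyltransferase, fell with drug by 1.31 in control and 1.18 in knockout cells (limma adjusted p = 7.5e-17 and 1.4e-15). CIITA, the regulator of class II genes, and PRDM1 were below the filter, CIITA with 1 to 7 reads a library.

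**Figure D5:**
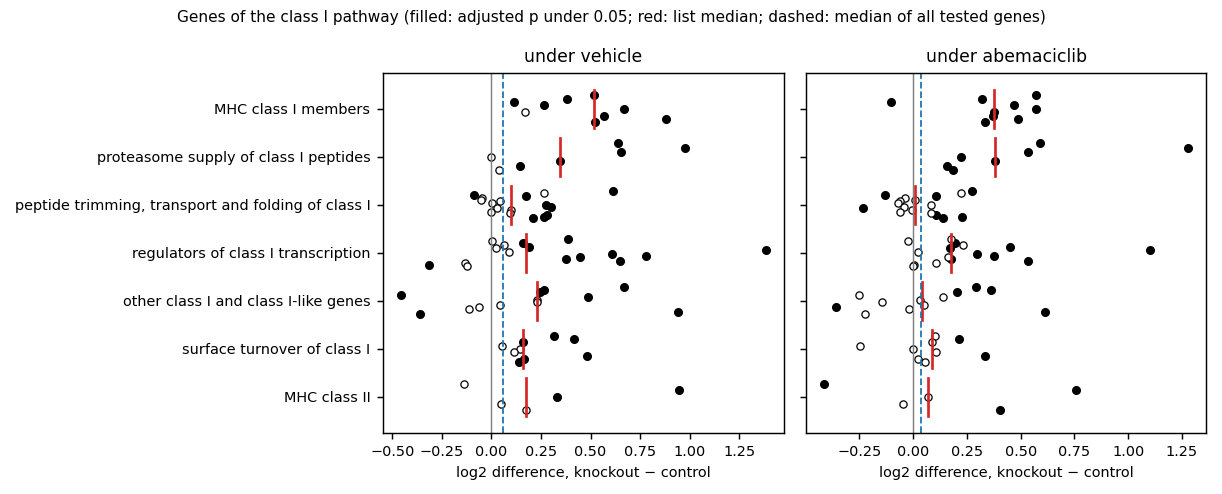
Log2 differences between knockout and control cells for the 9 members and 6 lists of related genes, under vehicle (left) and abemaciclib (right), 1 dot per tested gene. Filled dots passed the test, red bars are list medians and the dashed line is the median of all tested genes. The members have the highest list median under vehicle (0.52), while under abemaciclib that of proteasome supply (0.38) is just above theirs (0.37).

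Of 12 tested other class I and class I-like genes 5 rose and 2 fell in knockout cells under vehicle (median 0.23), and 4 rose and 1 fell under abemaciclib (median 0.04), or 2 fell without replicate 1 of either abemaciclib group. All tested genes stood at 24.6% higher and 13.1% lower under vehicle and 18.6% and 11.3% under abemaciclib, where the list median equalled that of all genes (0.04). AZGP1, a secreted protein with a class I-like fold, rose by 0.94 and 0.61 (limma adjusted p = 9.4e-12 and 1.4e-07). HLA-F, a nonclassical class I chain with partly shared reads, was at 8.20 ± 0.372 CPM in control and 13.6 ± 1.15 CPM in knockout libraries under vehicle (0.67, limma adjusted p = 1.7e-08). MICA, a ligand of the natural killer receptor NKG2D with partly shared reads, rose by 0.27 and 0.36 (limma adjusted p = 0.00454 and 2.6e-04). ULBP1, another such ligand, fell by 0.45 under vehicle (limma adjusted p = 0.00911). ULBP2, a further NKG2D ligand, rose under vehicle, a call lost without knockout vehicle replicate 3 (limma adjusted p = 0.0566). MICB, also such a ligand, rose under abemaciclib. Its call was lost without the filter, after rescaling, after quantile normalization and without control abemaciclib replicate 3.

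Of 9 tested genes of the surface turnover of class I 6 rose under vehicle and 2 under abemaciclib, and 0 fell (medians 0.16 and 0.09 against 0.06 and 0.04). Of all tested genes 24.6% and 18.6% were higher, so the count under abemaciclib was near the background. After median-of-ratios rescaling 3 rose under vehicle, and 1 rose under abemaciclib without replicate 4 of either abemaciclib group. IRGQ, a factor that directs class I molecules to autophagy, rose by 0.48 and 0.34 (limma adjusted p = 3.1e-05 and 0.00277). TMEM127 and SUSD6, which act together in class I degradation, rose by 0.42 and 0.32 under vehicle (limma adjusted p = 6.4e-06 and 0.00149). Only 5 of 12 class II genes passed the filter. Of these 2 rose and 0 fell in knockout cells under vehicle (median 0.18), and 2 rose and 1 fell under abemaciclib (median 0.07). Of all tested genes 24.6% were higher and 13.1% lower under vehicle, and 18.6% and 11.3% under abemaciclib. HLA-DMA was the other class II gene that rose under vehicle, and CD74 the other under abemaciclib, each beside HLA-DQB1. HLA-DQB1 rose by 0.94 and 0.76 in knockout cells (limma adjusted p = 3.0e-10 and 4.2e-08), and HLA-DRB1, with partly shared reads, fell by 0.42 under abemaciclib (limma adjusted p = 3.7e-04).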

How the data were processed

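RNA of 16 T47D libraries was sequenced by a commercial service, with libraries made by tagmentation, per the labels' protocols. Reads were aligned with STAR 2.7.11 to GRCh38, handled with SAMtools 1.22.1, counted with featureCounts of Subread 2.1.1 and summarised with MultiQC 1.32, per the submitters' processing notes; of the annotation release, strand setting and multi-mapping reads nothing is given in the sources used here. The authors deposited counts per 1000000 assigned reads (CPM), with each column summing to 1000000. Libraries were grouped by their titles.

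The most common low value gave what 1 read is worth. Of the values above 0, 70.2 to 71.8% were whole reads within 0.02, too few for a count test. Genes with whole reads in at most 8 of the 16 libraries are marked as partly shared and uncertain.

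The 92 ERCC features were left out. Genes reaching 1 CPM in 4 or more libraries (16218) entered the fit as log2(CPM + 1) with limma 3.58.1 (R 4.3.3), all 16 libraries in 1 fit of 4 group means, with a trend of the spread on expression. Tests were two-sided, p-values were adjusted by Benjamini and Hochberg's method, and the fit was tested on simulated data. Ratios were tested by exact permutation (scipy 1.17.1). Coordinates are from GENCODE 29 (GRCh38), and promoters from RefSeq (GRCh38.p14). All members were named in each comparison, up to 4 risen and 2 fallen called genes of each list, the 5 genes most like the members, and fixed markers; of these list genes the text names a part, CIITA and PRDM1 as untested list genes. The members and lists were chosen with earlier results of these data known.

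Alternatives were a pseudocount of 0.1, no filter, median-of-ratios rescaling, quantile normalization, no trend, only the groups compared, the replicate number as a block, and leaving out each library. The same settings for the related lists, and leaving out libraries for the ratios, were added after the data had been seen.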

Additional observations from a re-analysis of the deposited data

Results flagged for a closer look

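In 4 of the 36 sets of 4 libraries examined (9 members in 4 groups), 1 library stood far from the other 3 relative to their range; chance gives this in about 1 of 20 such sets. HLA-B was at 1140 CPM in knockout vehicle replicate 1 and 1104 to 1107 CPM in the other 3, and B2M was at 998 CPM in the same library and 914 to 922 CPM in the other 3. TAP2 was at 27.0 CPM in control vehicle replicate 2 and 22.3 to 22.6 CPM in the other 3. TAPBP was at 148 CPM in knockout abemaciclib replicate 1 and 141 to 142 CPM in the other 3.

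The drug difference differed between genotypes by the interaction test for 3 members: HLA-E (log2 -0.21), B2M (0.21) and TAPBP (-0.20).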

How the results depend on the processing

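Of 306 log2 differences of the 9 members under other settings, 22 lost a call, 7 gained one and 3 changed sign. Those that changed sign were uncalled values: TAP1 under drug in knockout cells (0.03 after rescaling, 0.02 after quantile normalization) and HLA-B in the interaction (-0.01 after quantile normalization). Of 720 such differences from the 16 fits without 1 library, 28 lost a call, 2 gained one and 3 changed sign, the last for ERAP2 under drug in control cells (-0.06 without control vehicle replicate 2 or 4, -0.09 without control abemaciclib replicate 1, with a range of -0.09 to 0.14). Among 138 named differences of related genes 107 kept their call in every setting; CALR between genotypes under vehicle (0.02) and EPCAM under drug in control cells (0.03) changed sign after quantile normalization.

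The call of HLA-E as lower in knockout cells under abemaciclib was lost without the filter, without the trend and with only the groups compared, leaving 0 members lower, and leaving out a library gave 0 to 1. Under drug in knockout cells 1 member fell after rescaling and 1 without the trend, and 1 to 3 when a library was left out. In the interaction 0 members were higher after quantile normalization and 1 was lower without the trend. Over all genes the interaction calls were 494 higher and 578 lower without the filter and 491 higher without the trend, and drug calls in knockout cells were 3578 higher and 2715 lower after quantile normalization (3227 and 2847 after rescaling). Calls of NLRC5 between genotypes under abemaciclib were also lost without the filter, after rescaling and after quantile normalization (limma adjusted p = 0.122, 0.0663 and 0.0541). The cause was not tested.

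Same-numbered libraries did not deviate together (r from -0.04 to 0.05). Low correlations cannot settle whether such libraries shared a day or culture, so pairing by number remains unknown. With the replicate block 742 genes were higher and 1003 lower in the interaction, and among the members TAP2 between genotypes under vehicle passed (0.17, limma adjusted p = 0.0297). At 12 to 46 reads, NLRC5 carries the largest counting error of the members.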
